A study of Drosophila melanogaster with 6 samples.

Results

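The 10 genes described here encode the core of the Dpp/BMP signalling pathway: the ligands dpp and gbb, the receptors tkv, sax and put, the Smad proteins Mad and Med, the nuclear factors shn and brk, and the inhibitory Smad Dad. They were chosen by name. Each gene with 2 kb on either side was taken as its locus, and every ATAC-seq peak that overlapped a locus by 1 bp or more was collected from the 6 deposited lists. All 10 matched the RefSeq gene table of the dm6 assembly, out of 13946 protein-coding genes, and each held at least 1 peak in all 6 samples. Peaks of the 6 lists that overlapped were merged into regions, of which 39 of 11854 fell in the 10 loci.

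In this pathway a ligand brings together type I receptors (Tkv, Sax) and the type II receptor Put, the type I receptor phosphorylates Mad, and Mad enters the nucleus with its partner Med. With Shn, the Smads shut off brk, whose product is a repressor of Dpp target genes, so signalling works in large part by removing a repressor. Dad is an induced inhibitor that closes a feedback loop. In the adult fly midgut Dpp signalling is known for its part in the identity of the acid-secreting copper cells and in the balance of stem cell division and enterocyte formation.

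Accessible DNA was mapped by ATAC-seq, which relies on cutting by the Tn5 transposase, in sorted midgut progenitors of Drosophila melanogaster, that is intestinal stem cells and enteroblasts (ISC/EB), in 2 groups of 3 samples, A to C. Control females carried esgts, UAS-GFP, a temperature-sensitive escargot driver with a GFP reporter. H1 RNAi females had the same transgenes plus UAS-H1 RNAi 1, directed against the linker histone H1. In both groups 3-day-old females spent 2 days at 18 °C, then 4 days on poor food at 29 °C to switch on the transgenes, and GFP+ cells (50000 to 100000) were sorted from 70 pooled guts per replicate. The driver labels stem cells and enteroblasts together, a single RNAi transgene was used, and the knock-down cannot be read from these lists.

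The lists held 6142, 10872 and 8602 peaks in controls A, B and C and 6564, 9827 and 7261 in the H1 RNAi samples. The genome-wide background in the caller's files, which rises with depth, was 5.04, 20.7 and 10.1 fragments per base in the controls and 5.26, 4.83 and 8.28 in the H1 RNAi samples. The shortest peak in a list ranged from 101 to 193 bp. Over the 4366 regions called in all 6 samples, the median covered length was 462, 855 and 814 bp in the controls and 536, 558 and 479 bp in the H1 RNAi samples, so peaks were wider in controls B and C than in the other 4 libraries. Of 9 progenitor markers, 7 to 9 had a peak within 500 bp of a gene end in each sample. For enteroendocrine and enterocyte markers the counts were 1 to 3 of 6, for visceral muscle 1 to 3 of 4, for hemocytes 0 to 2 of 3 in controls and 0 of 3 in every H1 RNAi sample, and for trachea 0 of 2 throughout. Over all protein-coding genes, 29.0 to 53.4% had such a peak in a sample. The enteroendocrine count was 3 in the longest lists, controls B and C and H1 RNAi B, and 1 in the others. In bulk libraries, fewer cells with an open site and less opening per cell cannot be told apart.

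Most regions at the pathway genes were called in every library, a larger share than over the genome at large. Of their 39 regions, 26 (66.7%) were called in all 6 samples, against 36.8% of all 11854 regions and 37.8% of the 10597 regions in protein-coding loci. These shares are descriptions, and the members' loci were long, with a median of 14.1 kb against 6.16 kb for all protein-coding genes. Of the remaining 13, 6 were missing from 1 library and 4 were called in 1 library only. Summits of the strongest peak lay within a median of 106 bp of each other in the 26 regions, against 134 bp over all 4366 shared regions. The spread ran from 14 to 1268 bp, the widest at gbb. Of the 26, 17 were farther than 500 bp from any annotated gene end, and 7 lay at an end of another gene, so accessibility there cannot be assigned to the pathway gene alone. A region counted when any part of it touched a locus. With the summit required to lie in the locus, 24 were called in all 6 samples.

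**Figure D1:**
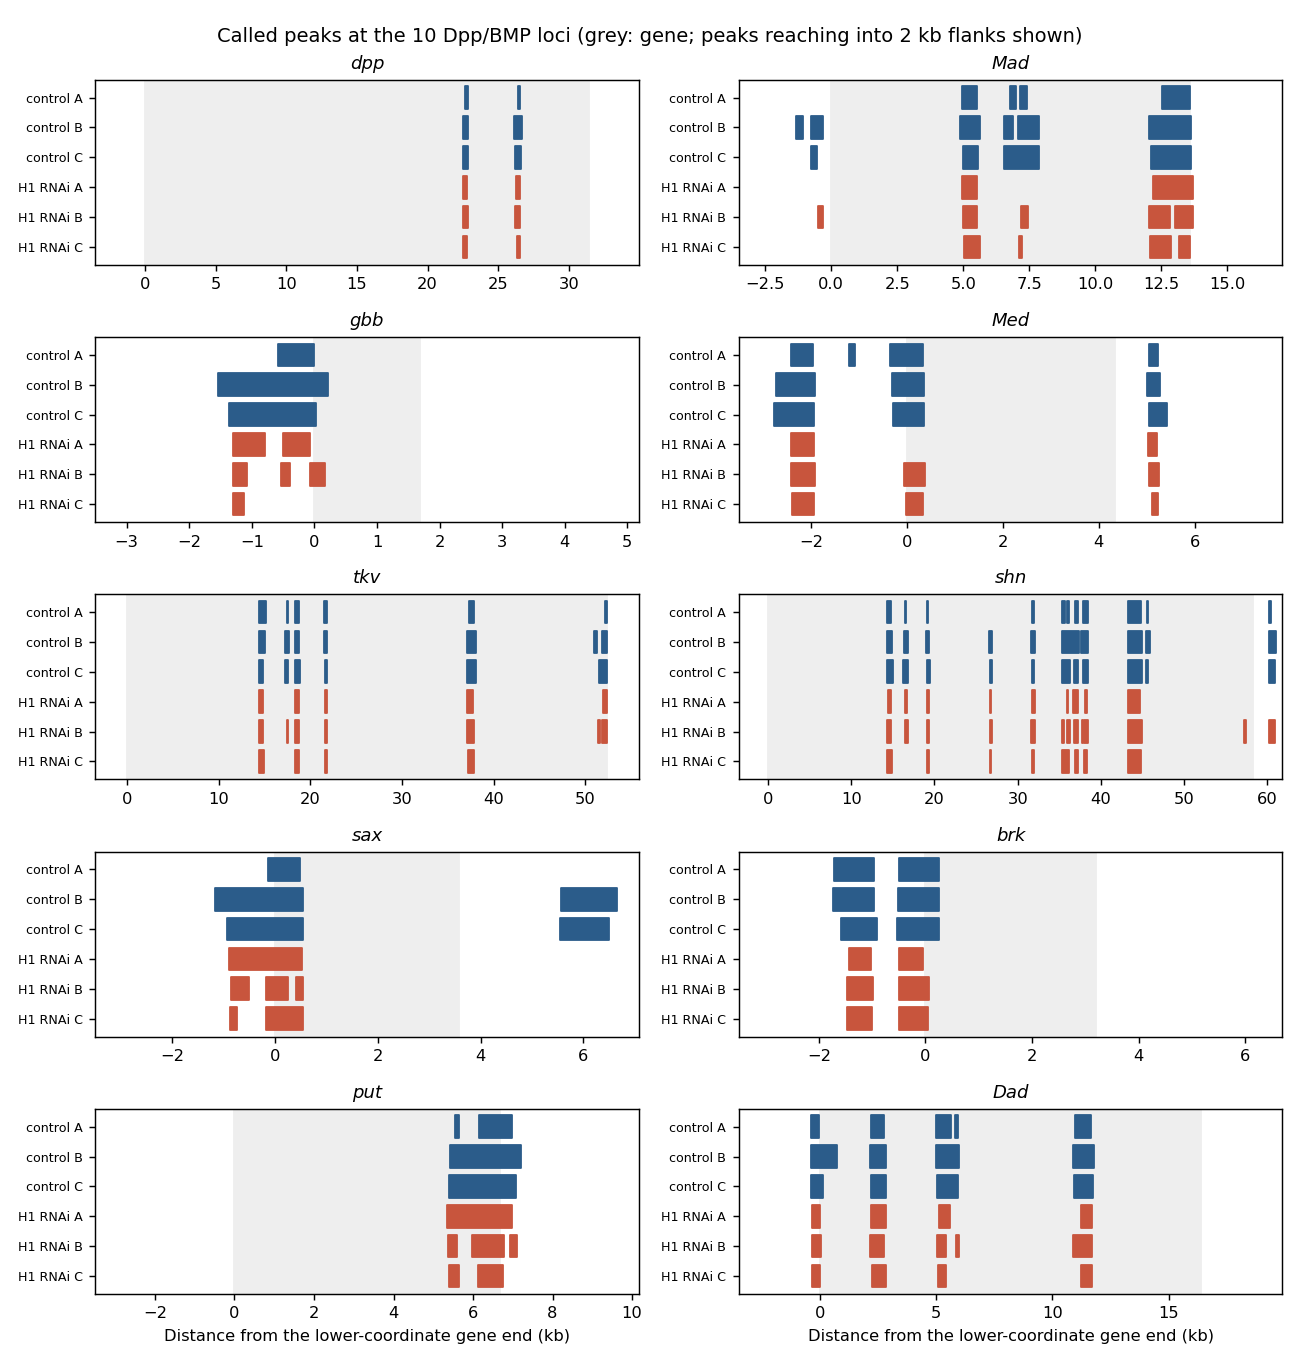
Called peaks in the 6 samples at each of the 10 loci, plotted as distance in kb from the lower-coordinate end of the gene, with the gene in grey, controls in blue and H1 RNAi samples in red. Peaks of dpp, tkv and shn lie mostly inside the gene, while those of gbb, put and brk cluster at 1 gene end. Those of sax do so too, apart from a peak past the other end in controls B and C.

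Of the ligand genes, dpp had called peaks at internal sites and none at its gene ends. The gene (chromosome 2L, 2428372 to 2459823) had 2 peaks in every sample, at 2450854 to 2451238 and 2454459 to 2455060, while both gene ends lacked a peak within 500 bp in all 6. The regions lie 8585 and 4763 bp inside the higher-coordinate end, and the summits agreed to 60 and 41 bp across the samples. By the authors' q-value, the first region stood at the 33.2, 50.2 and 59.2 percentile of the control lists and at the 73.2, 78.7 and 61.9 percentile of the H1 RNAi lists. Ranks in lists of different length do not show a change. Covered length of the locus was 314, 935 and 796 bp in controls and 607, 712 and 461 bp in H1 RNAi samples. The H1 RNAi values lie inside the control range (682 ± 326 bp in controls, 593 ± 126 bp in H1 RNAi; SD, n = 3 per group; p = 0.7 by exact two-sided permutation).

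The second ligand gene, gbb (2R, 23851562 to 23853247), had a single region across its lower-coordinate end, 23850015 to 23851774, shared with the ends of ytr, eIF6 and an antisense RNA gene. It was 1 peak in each control and was split into 2, 3 and 1 peaks in the H1 RNAi samples. Covered length was 586, 1760 and 1398 bp in controls and 940, 620 and 182 bp in H1 RNAi samples. In H1 RNAi C the only peak, at the 7.22 percentile of its list, lay away from the gene, and the gene end itself was not called. Control A overlapped the H1 RNAi values (mean 1248 ± 601 bp in controls, 581 ± 381 bp in H1 RNAi; SD, n = 3 per group; p = 0.3 by exact permutation). Among the 10 genes, gbb had the lowest-ranked best peak in all 6 lists.

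Among the receptor genes tkv, the main Dpp type I receptor, carried most of its peaks deep inside the gene. It spans 52.4 kb (2L, 5219000 to 5271384) and held 7 regions. All 6 samples shared 4 of them, at 5233330 to 5234097, 5237258 to 5237830, 5240487 to 5240792 and 5256051 to 5257127. Of protein-coding genes, 1.33% had as many shared regions or more, with no adjustment for length, and per 10 kb of locus tkv had 0.709. The last of the 4 stood between the 85.9 and the 98.8 percentile in every list. The summits of the first agreed to 14 bp, the smallest spread of the 26 shared regions in these loci. The third coincides with the ends of a pair of tRNA-Asp genes nested in tkv.

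Another internal tkv region, 5236251 to 5236623, was called in 3 of 3 controls (144, 373 and 345 bp) and in H1 RNAi B alone of the H1 RNAi samples (149 bp). It ranked low wherever it was called, at the 0.13, 43.3 and 20.3 percentile in controls and the 7.32 percentile in H1 RNAi B. The higher-coordinate gene end, shared with Cyp4ac3 and Nin, had a peak in all samples but H1 RNAi C. Covered length of the tkv locus was 2330, 3921 and 3536 bp in controls and 2200, 2978 and 1949 bp in H1 RNAi samples. These ranges overlap through control A (3262 ± 830.1 bp in controls, 2376 ± 537 bp in H1 RNAi; SD, n = 3 per group; p = 0.2 by exact permutation).

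The other type I receptor gene, sax (2R, 7806484 to 7810067), and the type II receptor gene put (3R, 14619030 to 14625703) each had 1 broad region across a gene end in all 6 samples. At sax it ran from 7805306 to 7807029 and is shared with Nop17l, and at put from 14624367 to 14626224, shared with the histone gene His4r and CG7886. Each merged up to 3 peaks of a sample. The summits of the strongest peaks spread over 548 bp at sax and 1171 bp at put, so the samples did not share 1 strongest site. Covered length at sax was 611, 1728 and 1526 bp in controls and 1418, 916 and 855 bp in H1 RNAi samples. At put it was 939, 1771 and 1698 bp in controls and 1652, 1250 and 871 bp in H1 RNAi samples. Groups overlapped at both genes, with a difference of −225 bp at sax (exact permutation p = 0.6) and −212 bp at put (exact permutation p = 0.5; n = 3 each). A second sax region (7812023 to 7813133), at the ends of TTLL12 and puml, was called in all 6 samples. Its peaks reached the edge of the locus only in controls B and C, and it belongs to the neighbours by position.

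Of the Smad genes, Mad, the Smad phosphorylated by the receptors (2L, 3146056 to 3159643), had a shared region inside the gene (3150932 to 3151706) and another across its higher-coordinate end (3158101 to 3159759, also an end of gkt). The internal region covered 562, 775 and 567 bp in controls and 572, 523 and 631 bp in H1 RNAi samples, so the groups overlapped. Between them lay a broad region (3152611 to 3153941), at or below the 45.7 percentile wherever it was called, of 518, 1120 and 1304 bp in controls, absent from H1 RNAi A and 273 and 135 bp long in H1 RNAi B and C. Over the whole Mad locus the covered length was 2149, 4218 and 3594 bp in controls and 2103, 2486 and 1983 bp in H1 RNAi samples. Control A fell among the H1 RNAi values (3320.3 ± 1061 bp in controls, 2191 ± 263 bp in H1 RNAi; SD, n = 3 per group; p = 0.2 by exact permutation). With lists of equal length the Mad groups did not overlap (a difference of −913 bp, exact permutation p = 0.1), as at 9.38% of genes lower in that setting.

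At Med, which encodes the partner of Mad (3R, 31611046 to 31615375), the gene end was less widely covered in every H1 RNAi sample than in any control. The region across the lower-coordinate end, 31610695 to 31611427, is at no end of another gene. It covered 692, 672 and 650 bp in controls, and 433 and 360 bp in H1 RNAi B and C, with no peak in H1 RNAi A. Divided by each sample's median over shared regions, it stood at 1.498, 0.786 and 0.799 in controls. H1 RNAi B and C stood at 0.777 and 0.752 on this scale, so H1 RNAi B lay close below control B. No genome-wide share of regions with this pattern is given, so these values only describe this region. The peaks ended at a similar place inside the gene in all 5 samples that had one, 0.341 to 0.382 kb from the gene end. On the outer side, with positions outside the gene written as negative, they began at −0.351, −0.314 and −0.288 kb in controls and at −0.051 and −0.012 kb in H1 RNAi B and C. Within their lists the control peaks stood at the 59.3, 56.5 and 37.9 percentile and the H1 RNAi peaks at the 28.1 and 6.996 percentile.

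Over the whole Med locus the covered length was 1057, 1038 and 1094 bp in controls and 248, 718 and 567 bp in H1 RNAi samples. The groups did not overlap, and 5.58% of the 9928 genes with a peak were lower without overlap. The Med control mean was 1063 ± 28.5 bp and the H1 RNAi mean 511 ± 240.0 bp (SD, n = 3 per group), a difference of −552 bp (p = 0.1 by exact permutation, the smallest that 3 against 3 samples allow). The separation depends on how the locus is drawn: within the gene body alone the difference was −110 bp (exact permutation p = 0.8), and with 5 kb flanks −913 bp (exact permutation p = 0.2), and the groups overlapped in both. When peaks under a −log10 q of 10 were dropped, the gene-end region was called in 3 of 3 controls and in no H1 RNAi sample, as were 0.253% of all 7891 regions in that setting. The same held with lists of equal length, where 0.872% of 8026 regions met that rule. The Med regions called in all 6 samples, 31608271 to 31609140 and 31616052 to 31616462, lie outside the gene and overlapped between the groups in covered length. The first overlapped only through control A (475, 830 and 843 bp in controls, 474, 482 and 461 bp in H1 RNAi samples). Divided by each sample's median it was lower in H1 RNAi without overlap, as were 6.14% of shared regions.

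Among the nuclear factors, shn, the zinc-finger partner of the Smads, was the longest locus and held the most peaks. It spans 58.3 kb (2R, 11159086 to 11217394) with 11 regions, 10 of them inside the gene, and 6 were shared by all samples. As many or more were found at 0.459% of protein-coding genes, a share not adjusted for length. Per 10 kb of locus shn had 0.963 shared regions, fewer than brk (2.78) and Dad (1.96) and below the median of the 10 genes (1.45), while the median over genes with a peak was 0.259. No sample had a peak within 500 bp of a shn gene end. The 2 regions that kept the highest rank, 11173336 to 11174050 and 11202310 to 11204046, stood between the 88.3 and the 99.0 percentile in every list, and the second covered 1636, 1737 and 1693 bp in controls and 1441, 1654 and 1539 bp in H1 RNAi samples. A further shared region, 11194381 to 11196410, stood between the 65.2 and the 88.5 percentile.

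Close to the second of these, 11204483 to 11204939 was the 1 region of the 39 called in 3 of 3 controls and 0 of 3 H1 RNAi samples. Genome-wide, 0.616% of regions met that rule and 0.186% met the reverse, which no region of the 10 loci did. Its peaks covered 141, 457 and 253 bp and stood at the 26.9, 43.7 and 22.9 percentile of the control lists. The region no longer counted as such under a −log10 q minimum of 10, under a fold minimum of 4, or when all lists were cut to equal length. Another internal region (11185613 to 11186040) was called in all samples but control A, and 1 (11216283 to 11216484) in H1 RNAi B alone. Covered length of the locus was 4470, 7456 and 6414 bp in controls and 3809, 5487 and 4492 bp in H1 RNAi samples, which overlap (6113 ± 1516 bp in controls, 4596 ± 844 bp in H1 RNAi; SD, n = 3 per group; p = 0.3 by exact permutation).

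The highest-ranked peaks of the pathway lay at brk (X, 7307939 to 7311132), the gene of the repressor that Dpp signalling shuts off. Its region across the lower-coordinate gene end, 7307397 to 7308197, held the highest-ranked peak of the 10 loci in all 6 lists, at the 97.8, 99.3 and 99.5 percentile in controls and the 99.5, 99.8 and 99.0 percentile in H1 RNAi samples. The authors' fold enrichment at this peak was 5.597, 5.09 and 6.13 in the control lists and 7.10, 9.17 and 6.66 in the H1 RNAi lists, values set in part by each library's background and given here only as descriptions of each list. A second region, 7306199 to 7307028, lay 910 bp outside the same gene end and stood between the 85.8 and the 95.6 percentile. Neither is at an end of another gene.

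Both brk regions were narrower in every H1 RNAi sample than in any control, as were 14.5% of the 4366 shared regions of the genome. The gene-end region covered 747, 772 and 801 bp in controls and 444, 555 and 538 bp in H1 RNAi samples. The outer one covered 760, 780 and 666 bp in controls and 414, 486 and 465 bp in H1 RNAi samples. At the gene end the outer edges nearly coincided in the 6 samples, from −0.542 to −0.488 kb. The inner edges lay at the same position, 0.259 kb inside the gene, in each control and at −0.045, 0.059 and 0.044 kb in the H1 RNAi samples. Whether reads can be mapped uniquely beyond the position shared by the controls was not checked, which limits what the edges and the widths of this region measure.

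The sum over the brk locus was 1507, 1552 and 1467 bp in controls and 858, 1041 and 1003 bp in H1 RNAi samples (1509 ± 42.5 bp in controls, 967 ± 96.6 bp in H1 RNAi; SD, n = 3 per group; p = 0.1 by exact permutation, the smallest possible). Of the 9928 genes with a peak, 5.58% were lower without overlap. Divided by each sample's median over shared regions, the gene-end region stood at 1.62, 0.903 and 0.984 in controls and 0.828, 0.996 and 1.12 in H1 RNAi samples. The outer region stood at 1.645, 0.912 and 0.818 in controls and 0.772, 0.872 and 0.971 in H1 RNAi samples. On this scale the groups overlapped at both regions.

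Dad, the inhibitory Smad gene and a Dpp target (3R, 17054007 to 17070408), had the same 4 regions in all 6 samples and no other. They were 17053624 to 17054732 across the lower-coordinate gene end, 17056169 to 17056848, 17058981 to 17059987 and 17064895 to 17065794, none at an end of another gene. The last held the strongest Dad peak in every list, between the 90.0 and the 98.7 percentile. The third covered 746, 1005 and 926 bp in controls and 478, 537 and 330 bp in H1 RNAi samples, without overlap. Divided by each sample's median it stood at 1.61, 1.18 and 1.14 against 0.892, 0.963 and 0.689, again without overlap. Of the 4366 shared regions of the genome, 14.5% were lower without overlap as deposited and 6.14% on the divided scale. The second region covered 523, 671 and 650 bp in controls and 616, 584 and 565 bp in H1 RNAi samples, so the groups overlapped. Over the Dad locus the values were 2310, 3685 and 2910 bp in controls and 1892, 2316 and 1714 bp in H1 RNAi samples, which touch at control A and H1 RNAi B (exact permutation p = 0.2, n = 3 each). Under a −log10 q minimum of 10 the Dad groups did not overlap (−1002 bp, exact permutation p = 0.1). Within the gene body alone they did not overlap either (−986 bp, exact permutation p = 0.1). Of all genes with a peak, 3.79% and 5.53% were lower without overlap in these settings.

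**Figure D2:**
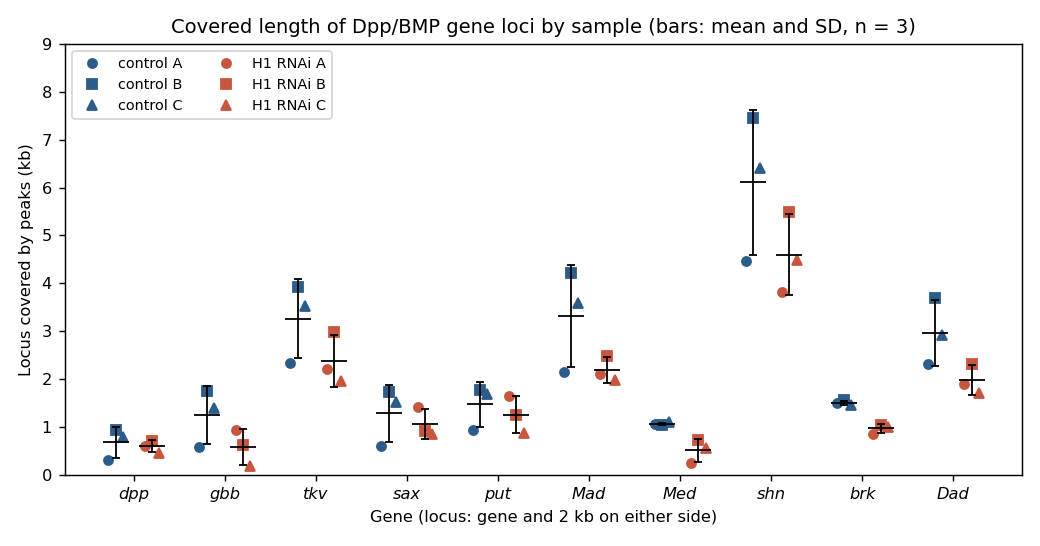
Covered length in kb of each locus in each sample (symbols), with the mean and SD of each group of 3 (black bars). The groups are apart at Med (1038 to 1094 bp in controls, 248 to 718 bp in H1 RNAi samples) and brk (1467 to 1552 bp, 858 to 1041 bp) and overlap at the other 8 genes.

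Set side by side, 2 of the 10 genes, Med and brk, had control and H1 RNAi values of covered length that did not overlap, both lower in H1 RNAi, and 0 were higher. Over the 9928 protein-coding genes with a peak in at least 1 sample, 5.58% were lower without overlap and 0.121% higher. Without control A all 10 were lower without overlap, as were 62.4% of genes, and without H1 RNAi B 5 were (tkv, Mad, Med, brk and Dad), as were 14.4% of genes. The adjusted exact permutation p was 0.797 for both genes (Benjamini-Hochberg over 9928 genes), the lowest value of any gene, and no gene passed 0.05 at an unadjusted p either, since 3 against 3 cannot. All 10 members had a lower mean in H1 RNAi as deposited, with a median ratio of 0.697, but the median over all genes was 0.627. With covered length taken as a share of each list, 5 of the 10 were lower, and divided by the shared-region median, 6 of the 10. These scalings moved the median ratio of all genes to 0.970 and 0.883, a log2 value of −0.04 and −0.18 in place of −0.67. On both scales the groups overlapped at Med (exact permutation p = 0.6 and 0.2) and brk (exact permutation p = 1 and 0.7), though their means stayed lower, and on the first scale dpp was higher in every H1 RNAi sample, as were 4.69% of genes.

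Under a fold minimum of 4, covered length of the Med and brk loci was higher in every H1 RNAi sample than in any control. The mean differences were 51.0 and 194 bp, and 1.23% of genes were higher without overlap in that setting. At Med this was not the gene end, where no peak reached that fold in any sample. The outer Med region, 31608271 to 31609140, passed in control A and in every H1 RNAi sample. Its peaks there ended at −1.946 to −1.923 kb, just inside the locus edge at −2 kb, so only a sliver was counted. At brk the outer region passed in every H1 RNAi sample and in no control. Control B kept 3007 peaks and H1 RNAi B 6143 under that minimum, so it removes different shares of the lists. The part of background, depth and peak width in the differences at Med and brk was not tested.

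**Figure D3:**
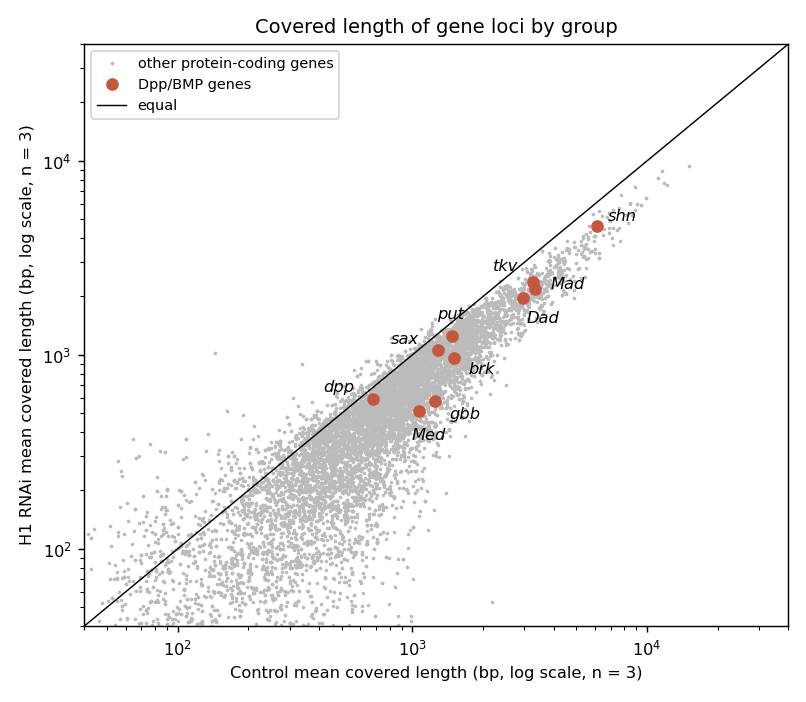
Mean covered length per locus in bp in H1 RNAi samples (y) against controls (x), both on log scales, for protein-coding genes with a mean above 40 bp in both groups (grey) and the 10 pathway genes (red). All 10 lie below the line of equal values, as do most grey points, and Med and gbb lie farthest below it, at ratios of 0.481 and 0.465.

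Peak numbers did not separate the groups at any of the 10 genes, against 0.544% of genes lower and 0.423% higher without overlap. The loci together held 38, 38 and 36 peaks in controls and 30, 46 and 32 in H1 RNAi samples. As a share of the list's covered length they took 0.592, 0.405 and 0.410% in controls and 0.469, 0.474 and 0.463% in H1 RNAi samples. By role, the 3 receptor genes had 9, 10 and 9 peaks in controls and 7, 13 and 8 in H1 RNAi samples, and the 2 Smad genes 8, 9 and 7 against 4, 8 and 7. The 3 genes shn, brk and Dad held 18, 16 and 17 peaks against 15, 20 and 14, and the ligand genes 3 in each control against 4, 5 and 3.

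A peak at a gene end was found at 8 of the 10 genes in each control and at 7, 8 and 6 in H1 RNAi A, B and C, while over all protein-coding genes the share ran from 29.0 to 53.4%. Those with one in all 6 samples were 5 genes (sax, put, Mad, brk and Dad) and those with none were dpp and shn. H1 RNAi A lacked the one at Med, and H1 RNAi C those at gbb and tkv.

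Width was compared region by region in a step chosen after the peak maps had been seen. Of the 26 regions called in all 6 samples, 5 were narrower in every H1 RNAi sample than in any control and 0 wider, against 14.5% and 0.137% of the 4366 shared regions of the genome. The 5 were both brk regions, the third Dad region, the first shn region (556, 588 and 715 bp in controls; 444, 518 and 527 bp in H1 RNAi samples) and the tkv region at the tRNA genes (289, 284 and 252 bp; 176, 194 and 215 bp). Divided by each sample's median, 2 regions were relatively narrower (the third of Dad and the outer one of Med) and 5 relatively wider, against 6.14% and 7.6% of shared regions. The 5 were the first of dpp, the second and last shared ones of tkv, the gene-end one of Mad and 1 inside shn (11190734 to 11191116).

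**Figure D4:**
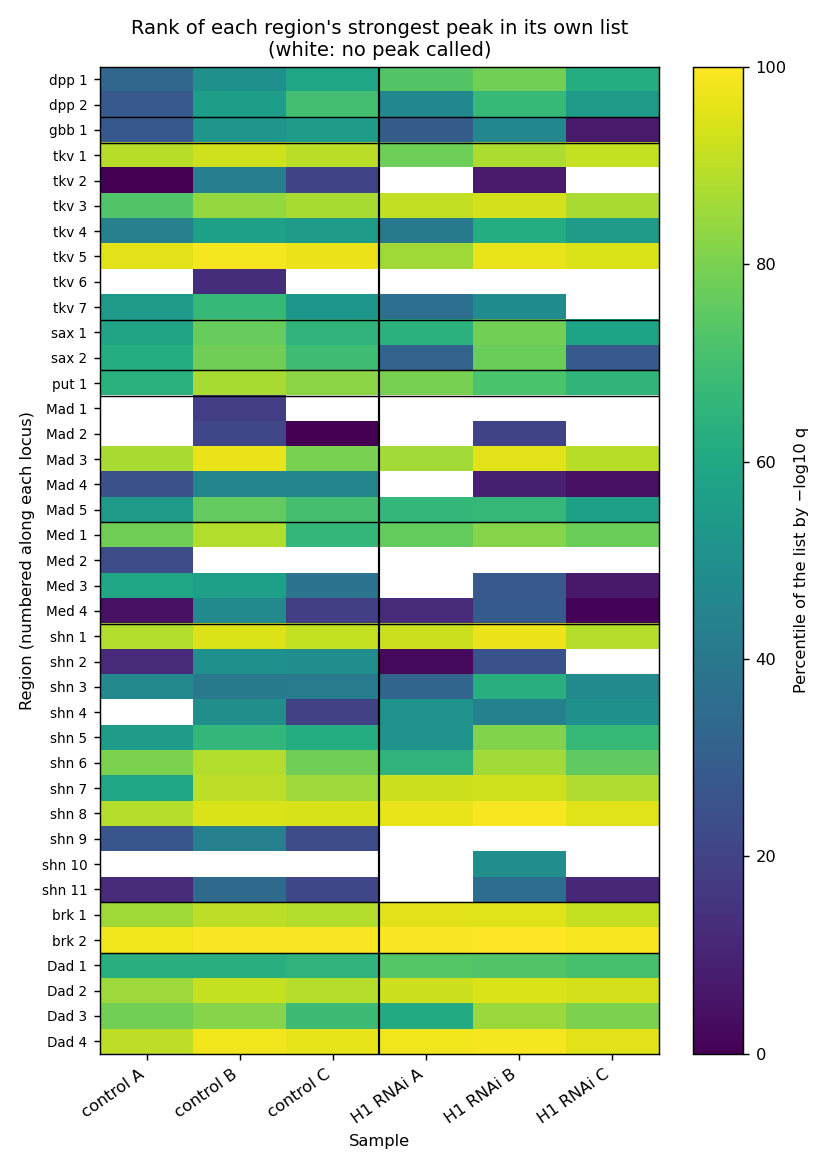
Percentile by −log10 q of the strongest peak of each of the 39 regions (rows, numbered along each locus) within each sample's own list (columns), with white where no peak was called. Rows of brk stay above 85 in all 6 samples, and no row with a white cell passes 66.7 in any sample.

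The wider pathway was described from 40 more genes. Of these ligand, receptor, modulator and target genes, 35 had a peak in at least 1 sample. The GATA factor gene pnr was the 1 of these that was lower without overlap, where 5.58% of all 9928 genes were. It covered 364, 435 and 386 bp in controls and 335, 341 and 343 bp in H1 RNAi samples (exact permutation p = 0.1). None was higher without overlap, where 0.121% of all genes were. All 35 had a lower mean in H1 RNAi as deposited, as did 90.8% of the 9928 genes, and their median ratio was 0.704. With covered length as a share of the list, or divided by the shared-region median, 2 of the 40 were higher without overlap, where 4.69% and 3.64% of all genes were. The ligand gene mav, the modulator gene tsg and the target genes Doc1, bap and zen had no peak in any sample. A gene-end peak was present in all 6 samples at 21 of the 40 genes and in none at 9. Among these 9, the T-box target gene bi held 3 shared regions away from its ends, an arrangement also seen at dpp and shn.

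The further genes with most shared regions were Snoo (7), which encodes a Ski/Sno-type Smad cofactor, the glypican genes dally (6) and dlp (4), the perlecan gene trol (4), the kinase gene nmo (4) and the homeobox gene dve (4). Covered length at Snoo was 3922, 5785 and 4929 bp in controls and 3735, 4486 and 3236 bp in H1 RNAi samples, and at dally 2935, 5743 and 4558 bp against 3264, 3408 and 2775 bp. Groups overlapped at all 6. The homeotic gene lab, a Dpp target in the midgut, had a gene-end peak in each sample and covered 181, 2490 and 1739 bp in controls and 557, 719 and 742 bp in H1 RNAi samples, which overlap. Of all regions in these 40 loci, 1, at kek5, was called in 3 of 3 controls and no H1 RNAi sample, and 0 the reverse. Over the 11854 regions of the genome the shares were 0.616% and 0.186%.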

How the data were processed

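ATAC-seq peak lists of 3 control and 3 H1 RNAi samples were used. The submitters' processing notes name MACS2, Bowtie2, Trim Galore and Picard and the dm6 build. Settings, versions and any Tn5 shift: not given in the sources used here. Each deposited list holds coordinates and summits (other values), an integer score, a fold enrichment (ratio) and −log10 p and q, all from the authors' caller. No peak was tested for height. Read totals were not used here; background was solved from the fold and p of the peaks.

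Peaks were counted, and covered bases summed, per locus and sample with Python 3.11.15, numpy 2.4.6, pandas 2.3.3 and scipy 1.17.1. Groups were compared by exact two-sided permutation (20 assignments), adjusted over 9928 genes by the Benjamini-Hochberg method. The gene table gives no strand, so both gene ends were used, and the planned motif search was not run. The code was tested on simulated lists. Members and lists were chosen with earlier results of these data known. All members are named; regions named were those in 3 of 3 samples of 1 group and at most 1 of the other, up to 3 shared regions per gene by rank, and, after seeing the values, others singled out. Other pathway genes named are those with non-overlapping groups, the 6 with most shared regions and, after seeing the values, mav, tsg, Doc1, bap, zen, bi, lab and kek5. Per the labels, each replicate came from its own pool of guts.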

Additional observations from a re-analysis of the deposited data

How the results depend on the processing

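Peak lists from 3 samples a group limit every call, and depth is known only through the background. The difference in covered length, H1 RNAi minus control, stayed negative for gbb and Mad in all 15 alternatives. The replicate block is among these and could not change a sign. Signs turned as follows, in bp. With a −log10 q of at least 10, dpp stood at 16.3. With a fold of at least 4, dpp stood at 174, Med at 51.0, shn at 1281, brk at 194 and Dad at 19.3. As a share of the list's covered length (rescaled to bp; added after seeing the data), dpp stood at 189.96, tkv at 74.1, sax at 303, put at 312 and shn at 342. Divided by the shared-region median (also added), dpp stood at 128, sax at 176, put at 196 and shn at 10.49. On leaving out a sample dpp ranged from −272 to 38.3 (without control B). Differences in peak number turned for sax (−0.333) and shn (0.333) with the stricter q, and with the fold minimum for tkv (0.333), sax (−0.333), Mad (0.333), Med (0.667) and shn (3.33). Within the gene body gbb turned to −0.333, and on leaving out a sample sax ranged from −0.167 (without H1 RNAi B) to 0.833 and shn from −2.17 to 0.333 (without H1 RNAi C). The cause was not tested.

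Members with non-overlapping groups, 2 lower and 0 higher, became 0 lower and 2 higher with the fold minimum and 1 lower with 5 kb flanks. They became 0 lower and 1 higher as a share of the list, and 0 lower by the shared-region median. With the stricter q, and with lists of equal length, 3 members were lower. Of all genes, 5.58% were lower and 0.121% higher as deposited. With the fold minimum these shares were 3.64% and 1.23%, and as a share of the list 3.72% and 4.69%. Lower genes made up 3.79% with the stricter q, 9.38% with lists of equal length, 5.48% with 5 kb flanks and 4.66% by the shared-region median. Leaving out a sample gave 2 to 10 lower: 10 without control A, when 62.4% of all genes did so, and 5 without H1 RNAi B (14.4%). Among the other pathway genes the 1 lower became 2 with lists of equal length (9.38% of all genes) and with 5 kb flanks (5.48%). On leaving out a sample it became 1 to 25 (25 without control A, 6 without H1 RNAi B, 2 without H1 RNAi C, when 6.62% of all genes were lower). Under each scaling 2 were higher, where 4.69% of all genes were as a share of the list and 3.64% by the shared-region median. Regions of the 10 loci called in all samples fell from 26 to 17 with the stricter q and to 10 with the fold minimum. Those in controls alone, 1 as deposited, numbered 0 with the fold minimum (with 2 in H1 RNAi alone), 3 with lists of equal length, and 1 to 2 on leaving out a sample (2 without control C or H1 RNAi B). Of all regions, 0.616% were in controls alone as deposited, 0.0637% with the fold minimum (1.93% in H1 RNAi alone) and 0.872% with lists of equal length. Without control C the share was 0.915%, and without H1 RNAi B 1.95%. Genes with a gene-end peak in every sample fell from 5 to 3 with the stricter q and to 2 with the fold minimum. With the replicate letter as a replicate block, no p can fall below 0.25, and the differences (−541 bp at brk) are the same by construction. Deviations of same-letter samples correlated over genes at −0.05, 0.21 and −0.12 for A, B and C. Those of different letters ran from −0.20 to 0.24. The same-letter values lay within that range, so the letters were not taken as pairs.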
